A study of Mus musculus with 2 samples.

Results

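Genes that govern where lymphocytes go and how long they stay were followed in CD45+ cells of the mouse heart, with 1 library of cells from control mice and 1 from mice with ISO-induced TTS-like cardiomyopathy. The 8 genes, of 23946 with a UMI in either library, were *S1pr1*, *S1pr5*, *Klf2*, *Cd69*, *Ccr7*, *Cxcr5*, *Cxcr4*, and *Itgal*. They were chosen by name, and all 8 were found in both libraries. TTS stands for Takotsubo syndrome, a transient weakening of the left ventricle that often follows a surge of catecholamines, and isoproterenol (ISO) is an agonist of beta-adrenergic receptors. Female WT mice in the TTS group, of the strain C57BL6 in the labels and C57BL/6J in the methods, received an intraperitoneal injection of ISO at 200 mg/kg, and hearts were taken after 24 hours. The control mice received the vehicle according to the methods, although the deposited labels give the ISO treatment for both samples. In each group the cells of 3 hearts were pooled before the 10x Genomics droplet run, in which every captured transcript is given its own tag, the unique molecular identifier (UMI). There is thus 1 library per group, no difference below has a replicate check, and all intervals are 95% intervals that cover counting error only.

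Lymphocytes leave tissues along a gradient of sphingosine 1-phosphate (S1P), which is sensed by the receptors S1PR1, on B and T cells, and S1PR5, on NK cells. The transcription factor KLF2 drives *S1pr1* transcription, and CD69 pulls the S1PR1 protein off the cell surface, so that cells with CD69 are held in the tissue. The chemokine receptors CCR7, CXCR5, and CXCR4 guide cells toward lymph node T zones, B cell follicles, and CXCL12-rich niches such as bone marrow, and the integrin chain encoded by *Itgal* forms LFA-1, which binds ICAM molecules on the vessel wall.

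Cells were gated on marker genes, none of which was among the 8 genes. A lymphocyte gate required UMIs of at least 2 markers of its own list and at most 1 of each other lymphocyte list, with under 0.5% of UMIs from a macrophage panel and under 0.5% from a neutrophil panel. The deposited control library held 47382455 UMIs in 5927 barcodes and the TTS library 58495112 UMIs in 5514 barcodes, of which 5641 and 5437 passed the cell filters with medians of 4790 and 8537 UMIs. The libraries shared 15 cell barcodes, and 0 of these were gated as lymphocytes in both. The gates left 30.0% of control and 23.1% of TTS cells ungated.

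Lymphocytes made up a far smaller part of the TTS library. B cells numbered 1957 in the control and 49 in the TTS library, or 34.7% (33.4 to 36.0) and 0.901% (0.667 to 1.19) of kept cells. T cells numbered 171 (3.03%, 2.60 to 3.51) and 25 (0.460%, 0.298 to 0.678). NK cells numbered 419 (7.43%, 6.76 to 8.14) and 27 (0.497%, 0.328 to 0.722). Group 2 innate lymphoid cells (ILC2) numbered 163 (2.89%, 2.47 to 3.36) and 91 (1.67%, 1.35 to 2.05), the smallest difference of the 4 gates. These shares depend on how barcodes with RNA of 2 lineages are treated. Of barcodes with at least 2 B markers, 31.2% of control and 83.0% of TTS barcodes were over the panel limits. The same shares were 65.6% and 85.0% for T markers, 21.4% and 72.9% for NK markers, and 56.7% and 65.8% for ILC2 markers. With such barcodes kept, the log2 ratio of shares, TTS over Control, moved from -5.27 to -3.27 for B cells, from -2.72 to -1.14 for T cells, from -3.90 to -2.29 for NK cells, and from -0.79 to -0.14 for ILC2.

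The lists that defined the gates were summed within them, which describes the gates but is no independent check of their names. The summed level of the 6 B markers was 3518 CPM (UMIs of a gene scaled to the summed UMIs of the gate) in the control and 2813 CPM in the TTS library, and the 6 T markers were at 2013 and 1968 CPM in the T gate. The 8 NK markers were at 6417 and 4493 CPM in the NK gate, and the 6 ILC2 markers at 3005 and 2891 CPM in the ILC2 gate. All markers of each list were detected in their own gate in both libraries. Just at the minimum of 2 markers were 155 control and 2 TTS cells in the B gate, 20 and 7 in the T gate, 7 and 0 in the NK gate, and 36 and 36 in the ILC2 gate.

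Marker genes of other cell types differed between the libraries in these gates. The 5 markers of mature DCs summed to 73.5 CPM in control and 490 CPM in TTS B cells, to 5.17 and 622 CPM in T cells, to 2.40 and 376 CPM in NK cells, and to 1.06 and 287 CPM in ILC2. The 8 macrophage markers ranged from 78.7 to 198 CPM over the 4 control gates and from 99.8 to 268 CPM over the 4 TTS gates, against 15431 and 4002 CPM in macrophages. The 4 neutrophil markers ranged from 17.0 to 33.1 CPM over the control gates and from 54.8 to 279 CPM over the TTS gates. The 5 DC markers were higher in TTS in each gate, at 24.6 and 103 CPM in B cells, 168 and 378 CPM in T cells, 17.4 and 125 CPM in NK cells, and 23.4 and 87.0 CPM in ILC2. The 4 monocyte markers were at 598 and 1684 CPM in B cells, 267 and 582 CPM in T cells, and 77.6 and 115 CPM in ILC2, and lower in TTS in NK cells, at 811 and 407 CPM. Of these 4, *Plac8* alone was at 579 and 1276 CPM in B cells. *Ly6c2* was at 14.6 and 344 CPM in B cells and at 789 and 329 CPM in NK cells. The CD8 genes *Cd8a* and *Cd8b1* summed to 1.22 and 85.9 CPM in B cells, so the TTS B gate also held RNA that its name does not cover. Whether the monocyte and CD8 markers came from other cells or from the lymphocytes themselves was not tested. The part that RNA of other cells plays in the differences below was not tested, apart from the repeats without barcodes that held DC markers.

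**Figure D1:**
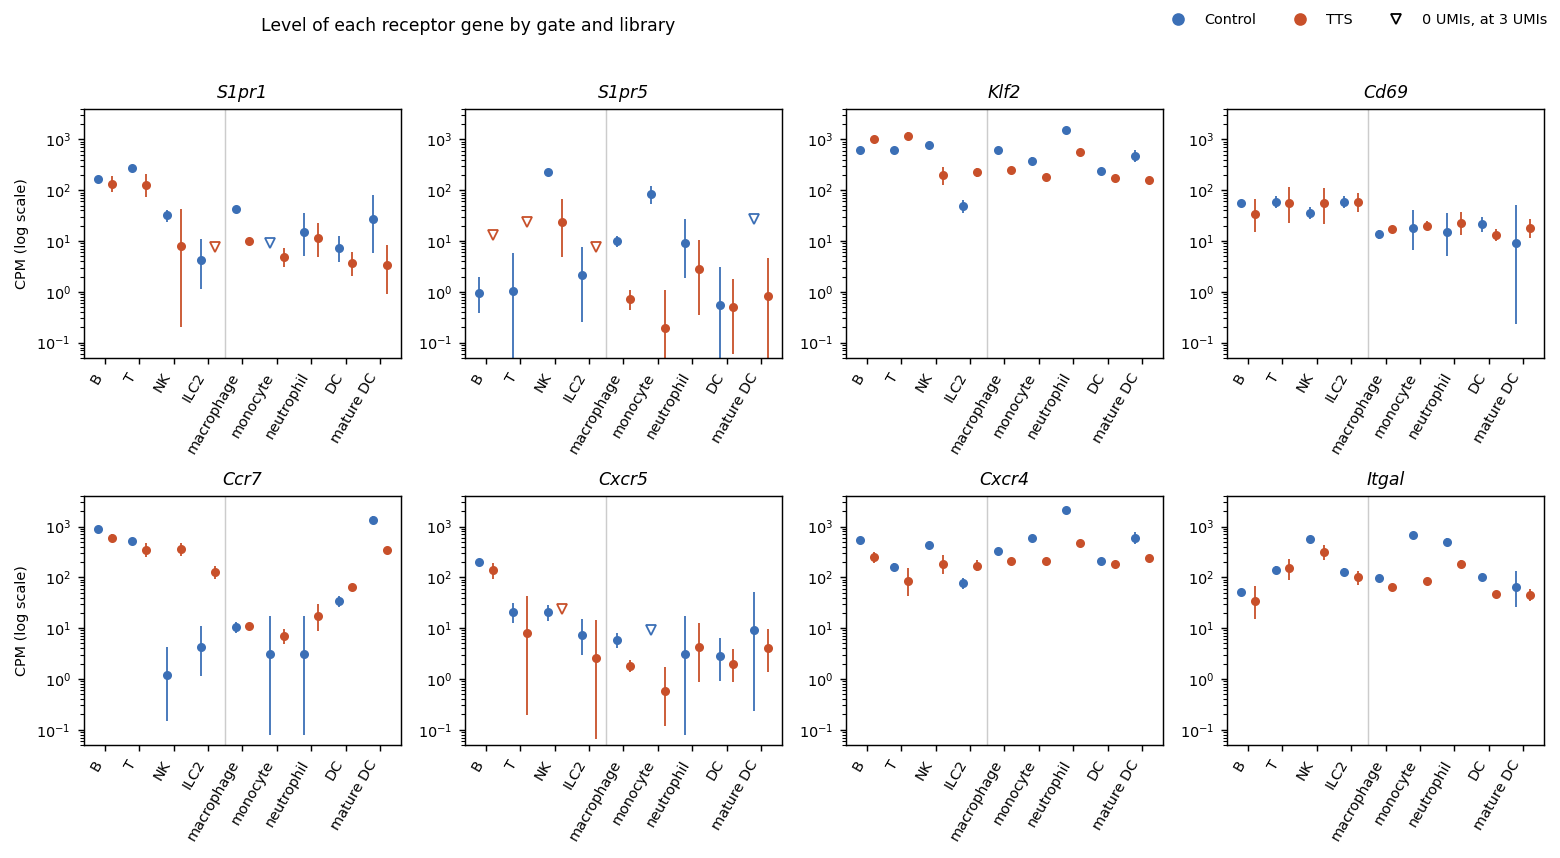
Level of the 8 genes in each gate, in CPM on a log axis, with exact Poisson 95% intervals (blue, Control; red, TTS; lymphocyte gates left of the line, myeloid gates right). Open triangles mark gates with 0 UMIs, drawn at the level of 3 UMIs. *S1pr5* stood at 230 CPM in control and 23.5 CPM in TTS NK cells, and *Klf2* was higher in the TTS library in the B, T, and ILC2 gates and lower in the NK gate.

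Levels were compared as log2 ratios, TTS over Control, for genes with at least 20 UMIs over both libraries, after adding 0.5 UMI. Members at least 2-fold lower in TTS numbered 1 of 7 genes in B cells, 1 of 7 in T cells, 5 of 8 in NK cells, and 0 of 5 in ILC2. Across all genes measured in the same gates, 12.4%, 11.5%, 15.6%, and 6.37% were at least 2-fold lower. At least 2-fold higher were 0 of 7, 0 of 7, 1 of 8, and 3 of 5, where 15.4%, 13.1%, 9.2%, and 8.9% of all genes were. The 5 genes in NK cells include *Cxcr5*, with 34 UMIs in the control and 0 in TTS, for which no fold can be given. With genes at 0 UMIs in a library set at 3 UMIs, 4 of 8 members and 10.1% of all genes were at least 2-fold lower in NK cells, the member counts of the other 3 gates were as above, and the shares of all genes were 7.34% in B cells, 9.55% in T cells, and 6.37% in ILC2. Genes with 1 or 2 UMIs were left as they were. The 4 members thus include *S1pr1*, with 1 UMI in TTS NK cells (7.83 CPM, where 3 UMIs are 23.5 CPM) and an interval that includes 0. The median log2 ratio of the measured members was -0.50 in B cells, -0.59 in T cells, -1.34 in NK cells (-1.05 with *Cxcr5*, at 0 UMIs in TTS, set at 3 UMIs), and 1.14 in ILC2. Over all genes it was 0.04, 0.08, -0.07, and 0.12. Scaling by the median of ratios moved the median of all genes by -0.18 in B cells, -0.33 in T cells, -0.22 in NK cells, and -0.20 in ILC2. The shares of all genes at least 2-fold lower were then 16.6%, 19.8%, 21.2%, and 9.15%, and of those at least 2-fold higher 11.6%, 7.01%, 5.94%, and 5.55%.

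**Figure D2:**
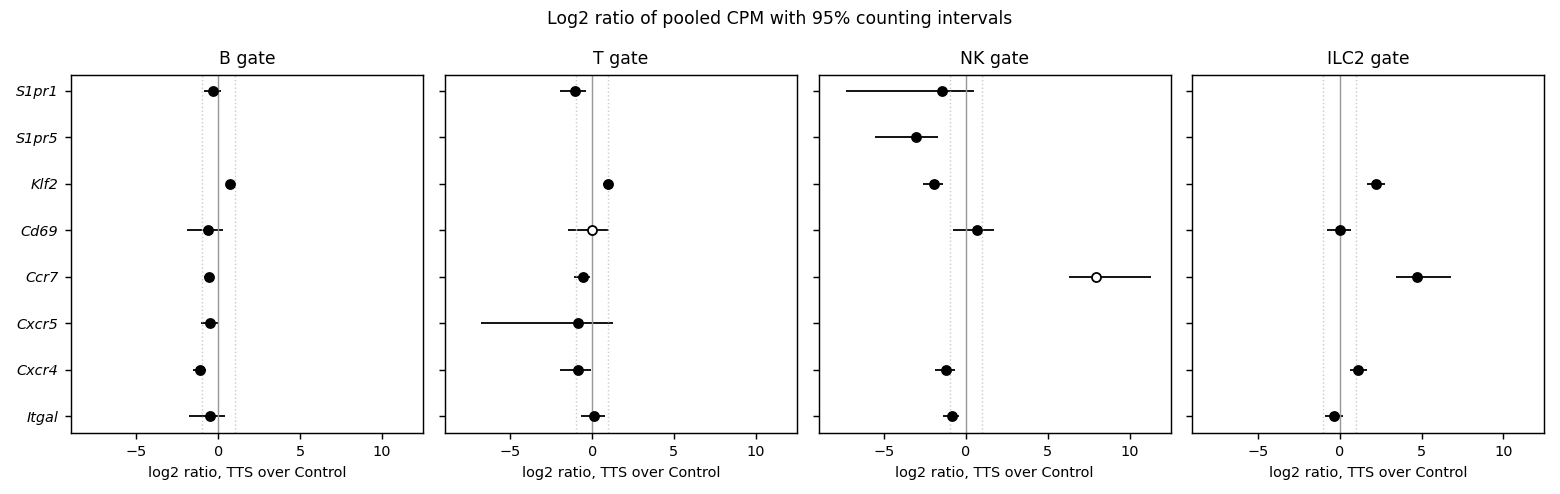
Log2 ratio of pooled CPM, TTS over Control, for each gene with at least 20 UMIs and a UMI in both libraries (points; bars, 95% counting intervals; dotted lines, 2-fold). Open points mark genes with most of their TTS UMIs in 1 cell, as for *Ccr7* in NK cells, where 46 of 46 UMIs came from 1 barcode.

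*S1pr1*, the main S1P receptor of recirculating lymphocytes (chromosome 3, 115710433 to 115715072, minus strand, GRCm38), was at 273 CPM in T cells of the control (264 UMIs; 241 to 308), its highest level among the control gates of lymphocytes, and at 126 CPM in T cells of TTS (16 UMIs; 72.0 to 205). The log2 ratio was -1.08 (-1.95 to -0.39). It was -0.57 (-1.44 to 0.12) without the 7 control and 4 TTS barcodes that held at least 2 DC or mature DC markers. In the cells with a *Cd8a* or *Cd8b1* UMI and none of *Cd4*, 75 in the control and 11 in TTS, *S1pr1* was at 239 and 260 CPM (log2 ratio 0.17, -0.88 to 0.98). The T gate also differed in makeup, as 40 control cells and 1 TTS cell had a *Cd4* UMI without *Cd8a* or *Cd8b1*. In B cells *S1pr1* was at 166 CPM (157 to 176) and 133 CPM (90.5 to 189), a log2 ratio of -0.30 whose interval (-0.88 to 0.19) includes 0. With barcodes of 2 lineages kept, that ratio was -1.48 (-1.75 to -1.22). NK cells had 31.8 CPM in the control and 7.83 CPM in TTS, the latter from 1 UMI (log2 ratio -1.45, -7.35 to 0.52), and ILC2 had 4 UMIs in the control and 0 in TTS. Neighbours in the order T, B, NK, and ILC2 had intervals that did not overlap in the control library. In TTS those of T and B cells overlapped, as did those of NK cells and ILC2.

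*S1pr5*, the S1P receptor of NK cells (chromosome 9, 21242912 to 21248443, minus strand), was largely an NK cell transcript among control lymphocytes, with 383 of the 393 UMIs found in the 4 gates. Its level in NK cells was 230 CPM in the control (207 to 254), with a UMI in 212 of 419 cells. In TTS it was 23.5 CPM (4.84 to 68.6), from 3 UMIs in 3 of 27 cells. The log2 ratio was -3.07 (-5.57 to -1.73), and the intervals of the levels did not overlap. At equal depth, with each cell thinned to 1000 UMIs, 91 of 418 control NK cells (21.8%, 17.9 to 26.0) and 1 of 27 TTS NK cells (3.70%, 0.0937 to 19.0) held a UMI, and these intervals overlap. At 2000 UMIs it was 34.6% (29.9 to 39.5) of control and 0 of 27 TTS NK cells (up to 12.8%), with intervals that did not overlap. B cells, which lack the receptor, showed it in 0.102% of control cells at 1000 UMIs. The median depth of the NK cells was 3594 UMIs in the control and 3882 UMIs in TTS. T cells held 1 UMI in the control and 0 in TTS, which in 127046 UMIs of the gate allows up to 23.6 CPM.

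The sequence before the start of *S1pr5* is shown with that of *Cxcr4*, as both genes were at least 2-fold lower in TTS NK cells. The KLF family binds CACCC boxes, but a link between *Klf2* and either gene was not tested. Both are 250 bases from RefSeq on GRCm38.p6, read 5′ to 3′ on the minus strand. Capitals mark CACCC or its reverse complement GGGTG, searched on both strands.

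S1pr5 (chr9:21248444-21248693): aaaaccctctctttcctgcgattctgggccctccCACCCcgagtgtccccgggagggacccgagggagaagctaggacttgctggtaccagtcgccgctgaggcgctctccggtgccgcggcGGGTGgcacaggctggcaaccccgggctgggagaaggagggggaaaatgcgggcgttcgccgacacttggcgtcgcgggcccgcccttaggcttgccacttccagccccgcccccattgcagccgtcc

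Cxcr4 (chr1:128592300-128592549): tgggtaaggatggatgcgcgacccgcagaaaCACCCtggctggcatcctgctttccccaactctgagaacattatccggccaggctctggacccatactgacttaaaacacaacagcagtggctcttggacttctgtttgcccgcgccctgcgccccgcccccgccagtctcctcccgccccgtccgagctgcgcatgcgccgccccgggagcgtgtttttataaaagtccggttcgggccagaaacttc

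The *S1pr5* window held 2 matches, the *Cxcr4* window 1, and the *Klf2* window 1. These were the 3 members matched by symbol in the promoter table. Of 32851 such windows in the mouse genome, 52.0% held at least 1 match, so the motif is common, and a match is not a binding site.

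*Klf2* (chromosome 8, 72319033 to 72321656, plus strand) differed in opposite directions between gates. In NK cells it was at 763 CPM in the control (722 to 806) and 196 CPM (127 to 289) in TTS, a log2 ratio of -1.94 (-2.60 to -1.40). At equal depth 211 of 418 control NK cells (50.5%, 45.6 to 55.4) and 3 of 27 TTS NK cells (11.1%, 2.35 to 29.2) held a *Klf2* UMI, and the intervals did not overlap.

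In the other 3 lymphocyte gates *Klf2* was higher in TTS. B cells had 609 CPM (592 to 627) and 1001 CPM (876 to 1138), a log2 ratio of 0.72 (0.52 to 0.91), with 56 of the 233 TTS UMIs in 1 cell. T cells had 618 CPM (569 to 669) and 1189 CPM (1007 to 1394), a log2 ratio of 0.95 (0.68 to 1.20), with 49 of the 151 TTS UMIs in 1 cell. ILC2 had the lowest control level, 48.9 CPM (35.8 to 65.2), against 225 CPM (181 to 277) in TTS, a log2 ratio of 2.19 (1.67 to 2.75). These 3 differences rested on the treatment of barcodes of 2 lineages. With those barcodes kept the log2 ratio was -0.44 in B cells, -0.32 in T cells, and 0.17 in ILC2, while it was -1.02 in NK cells.

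The number of cells with a *Klf2* UMI differed less. At equal depth it was found in 38.5% (36.4 to 40.7) of control and 53.1% (38.3 to 67.5) of TTS B cells, in 45.3% (37.7 to 53.1) and 48.0% (27.8 to 68.7) of T cells, and in 4.91% (2.14 to 9.44) and 11.0% (5.40 to 19.3) of ILC2. These intervals overlap in each gate. At 2000 UMIs the shares were 56.2% and 53.1% in B cells, so the direction turned there. They were 58.1% and 64.0% in T cells and 6.92% and 18.7% in ILC2, and the intervals overlap in each of these gates too. In ILC2, 24 of the 88 TTS UMIs came from 1 cell, and without the cell with the most UMIs in each library the log2 ratio was 1.97. In the T cells with *Cd8a* or *Cd8b1* and no *Cd4*, *Klf2* was at 744 CPM in the control and 1860 CPM in TTS (log2 ratio 1.33, 0.96 to 1.67).

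*Cd69*, which encodes the retention receptor that opposes S1PR1 (chromosome 6, 129267325 to 129275436, minus strand), did not differ beyond counting error in any lymphocyte gate without barcodes of 2 lineages. Its level was 56.1 CPM in control (50.8 to 61.7) and 34.4 CPM (14.8 to 67.7) in TTS B cells, and 59.0 CPM (44.7 to 76.4) and 55.1 CPM (22.2 to 114) in T cells. NK cells had 36.0 CPM (27.5 to 46.4) and 54.8 CPM (22.0 to 113), and ILC2 59.6 CPM (45.0 to 77.3) and 58.8 CPM (37.3 to 88.3). The log2 ratios were -0.62 (-1.93 to 0.29), -0.01 (-1.48 to 1.04), 0.69 (-0.77 to 1.74), and 0.00 (-0.79 to 0.71). The TTS values came from 8, 7, 7, and 23 UMIs, so that a 2-fold difference either way was within the interval in T cells. With barcodes of 2 lineages kept, the log2 ratio was -1.11 (-1.55 to -0.72) in B cells and -0.83 (-1.32 to -0.36) in ILC2. It was then -0.39 (-0.89 to 0.07) in T cells and -0.33 (-1.05 to 0.31) in NK cells. At equal depth *Cd69* was found in 3.11% to 6.13% of cells of the 4 control gates, against 0.901% of neutrophils in either library.

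Within control T cells at equal depth, 0 of 47 cells with an *S1pr1* UMI (up to 7.55%) and 7 of 123 cells without (5.69%, 2.32 to 11.4) held a *Cd69* UMI. In control NK cells a *Klf2* UMI was found in 2 of 13 cells with *Cd69* (15.4%, 1.92 to 45.4) and in 209 of 405 cells without (51.6%, 46.6 to 56.6). The first pair of intervals overlaps and the second does not. In the other control gates the intervals of these 2 gene pairs overlapped. *Cd69* was found in 5.43% of B cells with *S1pr1* and 4.77% without, and in 0 of 18 and 13 of 400 NK cells. *Klf2* was found in 42.1% of B cells with *Cd69* and 38.4% without. The same shares were 42.9% and 45.4% in T cells and 10.0% and 4.58% in ILC2. Other gene pairs were computed and are not given. In TTS, 4 T cells held an *S1pr1* UMI and 2 NK cells a *Cd69* UMI at this depth, which is too few for the same reading.

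**Figure D3:**
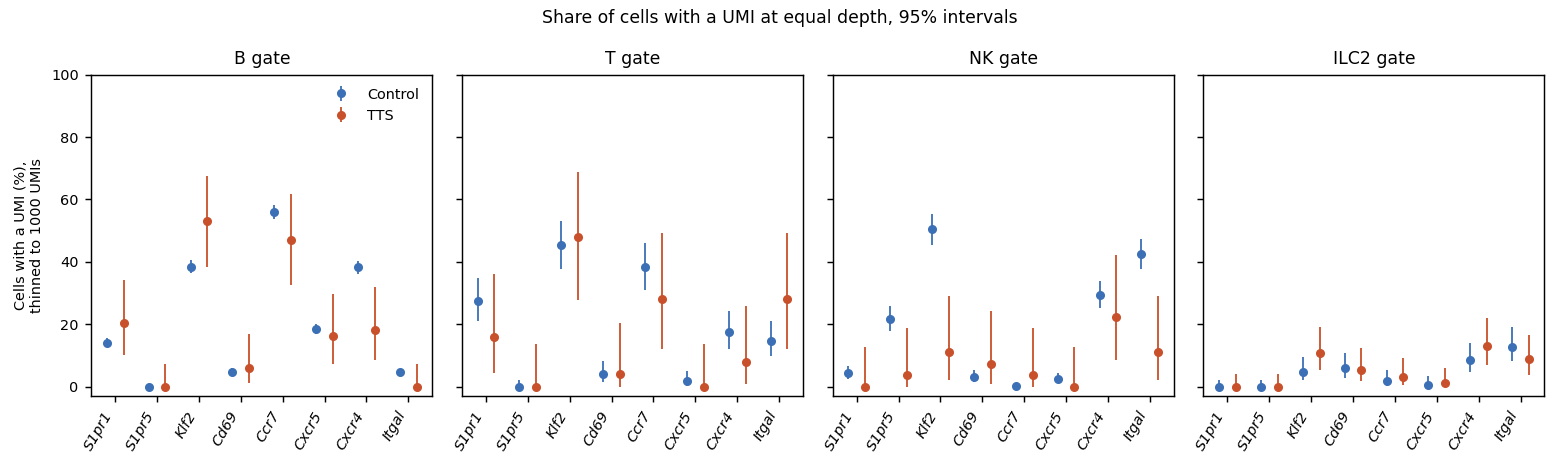
Share of cells with a UMI of each gene after each cell was thinned to 1000 UMIs, in % of cells with exact Clopper-Pearson 95% intervals (blue, Control; red, TTS). For *Klf2* and *Itgal* in NK cells and *Cxcr4* in B cells, the TTS interval lies below the control interval. At 2000 UMIs (not drawn) this was so for *Klf2* and *S1pr5* in NK cells and *Cxcr4* and *Ccr7* in B cells.

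*Ccr7*, the receptor for CCL19 and CCL21 (chromosome 11, 99144196 to 99155077, minus strand), was at 898 CPM (877 to 920) in the B cells of the control library, against 597 CPM (502 to 705) in TTS. The log2 ratio was -0.58 (-0.84 to -0.35). T cells had 526 CPM (481 to 574) and 346 CPM (252 to 465), a log2 ratio of -0.59 (-1.08 to -0.16). Without the barcodes with DC markers, which held 26 of the 44 TTS UMIs of the T gate, the T cell ratio was -1.38 (-2.19 to -0.75). At equal depth *Ccr7* was found in 56.1% (53.9 to 58.4) of control and 46.9% (32.5 to 61.7) of TTS B cells, with intervals that overlap. At 2000 UMIs the shares were 76.5% (74.5 to 78.4) and 51.0% (36.3 to 65.6), and the intervals did not overlap.

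Levels of *Ccr7* in NK cells and ILC2 followed a few barcodes with markers of mature DCs, which use the receptor to reach lymph nodes. NK cells had 2 UMIs in the control (1.20 CPM) and 46 in TTS (360 CPM), and all 46 were in 1 barcode with DC markers. Without these barcodes TTS NK cells had 0 *Ccr7* UMIs. ILC2 had 4 UMIs in the control (4.25 CPM) and 49 in TTS (125 CPM), found in 5 of 91 cells, and 33 of the 49 were in the 2 barcodes with DC markers. Without them the level in TTS ILC2 was 43.7 CPM (log2 ratio 3.23, 1.73 to 5.40). Mature DCs themselves had 342 CPM (310 to 377) in TTS, where 45 of 92 cells held a UMI. In the control their 9 cells had 1377 CPM, with 106 of 149 UMIs in 1 cell.

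*Cxcr5*, the receptor for the follicle chemokine CXCL13 (chromosome 9, 44511787 to 44561877, minus strand), was a B cell transcript, at 197 CPM in the control (187 to 208) and 137 CPM (94.0 to 194) in TTS. The log2 ratio was -0.50 (-1.07 to -0.02), and it turned to 0.14 when cells were gated after thinning. The share of B cells with a UMI at equal depth was 18.5% (16.8 to 20.3) and 16.3% (7.32 to 29.7), against 0.107% and 0.146% of macrophages. T cells had 20.7 CPM in the control and 1 UMI in TTS. NK cells had 20.4 CPM in the control (34 UMIs) and 0 UMIs in TTS, which allows up to 23.5 CPM, so that no fold can be given.

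*Cxcr4*, the receptor for CXCL12 (chromosome 1, 128588199 to 128592293, minus strand), was lower in TTS B and NK cells and higher in TTS ILC2. B cells had 540 CPM (524 to 557) and 249 CPM (189 to 322), a log2 ratio of -1.10 (-1.52 to -0.74), and at equal depth 38.2% (36.1 to 40.4) and 18.4% (8.76 to 32.0) of B cells held a UMI. NK cells had 430 CPM (399 to 462) and 180 CPM (114 to 270), a log2 ratio of -1.22 (-1.92 to -0.66), while the shares of cells, 29.4% (25.1 to 34.1) and 22.2% (8.62 to 42.3), overlapped. ILC2 had 76.6 CPM (59.9 to 96.4) and 169 CPM (131 to 215), a log2 ratio of 1.14 (0.64 to 1.64), with shares of 8.59% and 13.2% whose intervals also overlapped. With barcodes of 2 lineages kept, the log2 ratio was -1.05 in B cells, -1.01 in NK cells, and 0.31 in ILC2. T cells had 164 CPM (139 to 191) and 86.6 CPM (43.2 to 155), a log2 ratio of -0.86 (-1.95 to -0.04). This was -2.07 (-4.58 to -0.71), from 3 TTS UMIs, without the barcodes with DC markers. The direction turned under 3 alternatives, to 0.21 when the list with the most markers took the cell, 0.11 when cells were gated after thinning, and 0.03 at a panel limit of 1%.

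*Itgal*, the alpha chain of LFA-1 (chromosome 7, 127296260 to 127335138, plus strand), was highest in NK cells among the lymphocytes. These had 580 CPM in the control (544 to 617) and 313 CPM (224 to 426) in TTS, a log2 ratio of -0.87 (-1.38 to -0.43). At equal depth 42.6% (37.8 to 47.5) of control and 11.1% (2.35 to 29.2) of TTS NK cells held a UMI, and without thinning 85.0% and 74.1% did. At 2000 UMIs the shares, 69.4% (64.6 to 73.9) and 48.1% (28.7 to 68.1), overlapped. T cells had 142 CPM (119 to 168) and 150 CPM (90.0 to 234), and ILC2 127 CPM (105 to 151) and 99.8 CPM (71.0 to 136). B cells had the lowest level, 51.2 CPM (46.2 to 56.6) and 34.4 CPM (14.8 to 67.7). The log2 ratios of these 3 gates, 0.11, -0.33, and -0.49, had intervals that include 0. With barcodes of 2 lineages kept they were -0.55, -0.62, and -0.41, with intervals below 0.

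In the myeloid gates, which grew from 934 to 2741 macrophages and from 54 to 704 monocytes, most members were also lower in TTS. Macrophages had *Klf2* at 606 and 246 CPM (log2 ratio -1.30, -1.36 to -1.24), *S1pr1* at 42.8 and 9.90 CPM (-2.11, -2.36 to -1.87), *S1pr5* at 9.96 and 0.722 CPM (-3.76, -4.57 to -3.06), and *Cxcr5* at 5.76 and 1.82 CPM (-1.67, -2.29 to -1.01). The last 3 genes were found at equal depth in at most 4.39% of macrophages. *Cxcr4* was at 325 and 212 CPM (-0.62), *Itgal* at 98.8 and 63.9 CPM (-0.63), *Cd69* at 13.5 and 17.2 CPM (0.33), and *Ccr7* at 10.4 and 11.1 CPM (0.08). Of all genes measured in macrophages, 22.4% were at least 2-fold lower and 8.89% at least 2-fold higher, and 4 of the 8 members were at least 2-fold lower.

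The control monocyte gate held a strong *S1pr5* signal, as 16 of 54 cells had a UMI, against 1 of 704 in TTS. The levels were 82.5 CPM (54.4 to 120) and 0.194 CPM (0.00491 to 1.08). *Itgal* was at 672 and 86.5 CPM in these monocytes (log2 ratio -2.96, -3.19 to -2.72) and *Ace*, a gene of patrolling monocytes, at 400 and 11.1 CPM, while *Ly6c2*, a gene of inflammatory monocytes, was at 452 and 411 CPM. *Cxcr4* was at 605 and 210 CPM (-1.53) and *Klf2* at 376 and 183 CPM (-1.04) in monocytes.

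Neutrophils, 111 in each library, had the highest *Klf2* and *Cxcr4* of all gates in the control. *Klf2* was at 1557 CPM in the control and 555 CPM in TTS (log2 ratio -1.49, -1.68 to -1.30), *Cxcr4* at 2163 and 472 CPM (-2.19, -2.39 to -2.01), and *Itgal* at 508 and 182 CPM (-1.48, -1.82 to -1.14). The share of neutrophils with a *Cxcr4* UMI at equal depth was 74.8% (65.7 to 82.5) and 36.0% (27.1 to 45.7). In DCs, *Itgal* was at 99.5 and 46.9 CPM (-1.08), *Ccr7* at 34.1 and 63.8 CPM (0.90), *Klf2* at 244 and 177 CPM (-0.46), and *Cxcr4* at 211 and 182 CPM (-0.22). Members at least 2-fold lower numbered 4 of 7 in monocytes, 3 of 4 in neutrophils, 1 of 6 in DCs, and 3 of 5 in mature DCs, where 21.2%, 13.3%, 8.18%, and 13.8% of all genes were. At least 2-fold higher was 1 member in monocytes, *S1pr1*, from 0 UMIs in the control and 25 in TTS, for which no fold can be given, and 0 in the other 3 gates, where 12.2% of all genes in monocytes, 26.2% in neutrophils, 6.82% in DCs, and 14.3% in mature DCs were. *Klf2* and *Cxcr4* were thus lower in TTS in the NK gate and in each of these 4 myeloid gates. In B cells *Cxcr4* was lower and *Klf2* higher, and in ILC2 both were higher.

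The gates that held each gene's UMIs differed between the libraries. Over all kept cells, *Ccr7* was at 334 and 45.3 CPM, *S1pr1* at 93.7 and 13.8 CPM, *Cxcr5* at 64.6 and 4.44 CPM, and *S1pr5* at 17.3 and 0.884 CPM. The 4 lymphocyte gates held 51.5% of *Ccr7* UMIs in the control and 11.1% in TTS, 39.7% and 6.28% of *S1pr1*, 56.5% and 13.8% of *Cxcr5*, 54.7% and 6.12% of *S1pr5*, 42.6% and 4.20% of *Cd69*, and 26.8% and 3.45% of *Klf2*. Ungated cells held between 23.4% and 56.9% of the UMIs of a member, so these shares are lower limits for each lineage. Macrophages held 52.1% of *Cxcr4*, 51.2% of *Itgal*, 49.7% of *Klf2*, and 46.6% of *Cd69* UMIs in TTS.

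**Figure D4:**
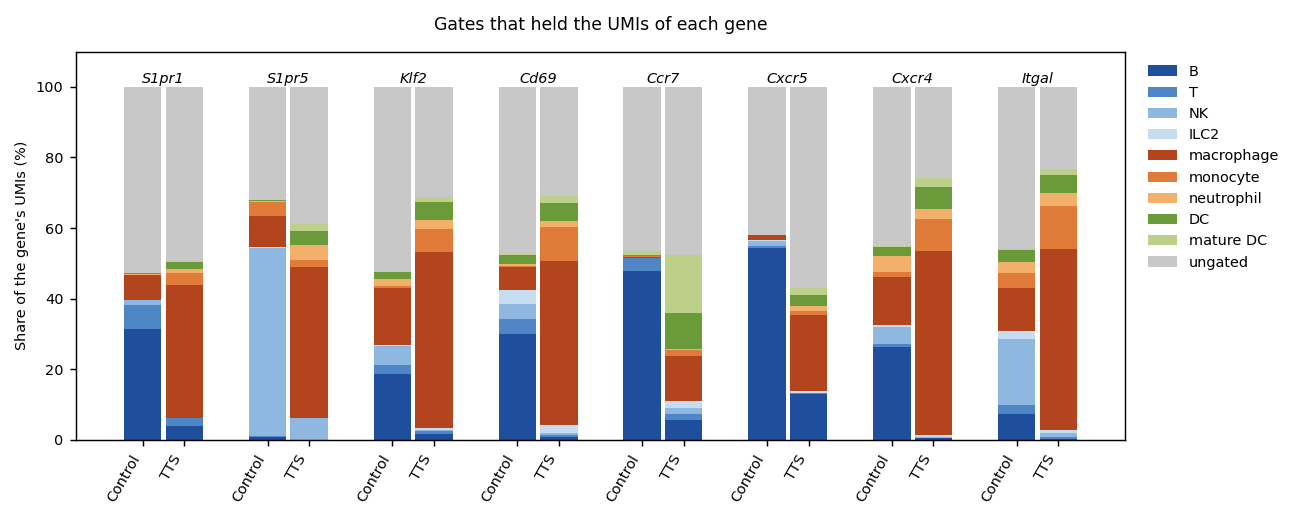
Share of each gene's UMIs, in % of all kept cells, held by each gate in the Control (left bar of each pair) and TTS library (right bar). Lymphocyte gates are blue, and their part was 51.5% for *Ccr7* in the control and 11.1% in TTS.

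To describe the part of the gate shares, the level over all kept cells was computed for a mix of gates. Each gate, the ungated cells included, was put at its control level and its TTS share of UMIs. Makeup within a gate also differed, as in monocytes, where *Ace* was at 400 and 11.1 CPM. The ungated cells, with 52.1% and 25.9% of UMIs, were taken as 1 gate. The calculation thus does not separate cell numbers from levels. For *Cd69* this gave 19.5 CPM against 19.3 CPM measured in TTS and 33.1 CPM in the control. For *Ccr7* it gave 121 CPM against 45.3 measured, for *S1pr1* 49.8 against 13.8, and for *Cxcr5* 17.9 against 4.44. The values for *Klf2*, 557 against 260 CPM, *S1pr5*, 16.4 against 0.884 CPM, and *Cxcr4*, 369 against 213 CPM, were close to the control levels of 576, 17.3, and 366 CPM. For these 3 genes the changed makeup by gate moved the computed level little. For *Itgal* it moved the level upward, to 161 CPM from 125 CPM in the control, against 65.5 CPM measured in TTS. The computed values of *S1pr5* and *Itgal* depend in part on the monocyte gate, with 0.786% of UMIs in the control and 9.30% in TTS. It was put at the control levels of 54 cells, 82.5 CPM for *S1pr5* and 672 CPM for *Itgal*.

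Other genes of the same pathways were read from fixed lists. Among all genes, 12.4% in B, 11.5% in T, and 15.6% in NK cells and 6.37% in ILC2 were at least 2-fold lower. At least 2-fold higher were 15.4%, 13.1%, 9.2%, and 8.9%. The counts of this list and of those below are to be read against these shares, and several lie near them. For S1P and egress signaling, 4 of 16 measured genes were at least 2-fold lower in TTS B cells and 0 higher (median log2 ratio -0.08). One of the 4 was *Spns2*, an exporter of S1P, with 35 UMIs in the control and 0 in TTS, for which no fold can be given. With it set at 3 UMIs the count was 3 and the median 0.07. *Gna13*, a G protein subunit that confines B cells, was at 273 and 94.5 CPM there (log2 ratio -1.50, -2.21 to -0.93). In T cells 0 of 12 passed 2-fold (median 0.22). In NK cells 2 of 14 were lower and 1 higher (median -0.43), with *Klf3*, a repressor related to KLF2, at 110 and 39.1 CPM (-1.35, -3.13 to -0.24) and *Arhgef1*, a RhoA exchange factor downstream of Gα13, at 257 and 102 CPM (-1.28, -2.26 to -0.55). In ILC2 0 of 12 passed 2-fold (median 0.23).

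Among other chemokine receptors, 5 of 7 were at least 2-fold higher and 0 lower in TTS B cells (median 1.62). These included *Ccr2*, the receptor of inflammatory monocytes, at 10.8 and 180 CPM (4.07, 3.49 to 4.62), and *Ccr9* at 11.5 and 125 CPM (3.46, 2.78 to 4.06), with UMIs in 13 and 5 of 49 cells. In T cells 5 of 8 were higher (median 1.30), and 1 was counted as lower, *Cx3cr1*, with 34 UMIs in the control (35.2 CPM) and 0 in TTS, which allows up to 23.6 CPM, so that 0 were lower with it set at 3 UMIs. *Ccr9* was in T cells at 13.5 and 55.1 CPM from 13 and 7 UMIs (2.08, 0.47 to 3.47). In NK cells 2 of 6 were higher and 1 lower (median 0.10), the latter *Cx3cr1*, a receptor of circulating NK cells, at 78.6 and 15.7 CPM from 131 and 2 UMIs (-2.01, -5.39 to -0.45). In ILC2 0 of 7 were lower (median -0.08).

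For integrins and adhesion molecules, 7 of 12 were at least 2-fold higher and 0 lower in TTS B cells (median 1.52), with *Itgax*, a myeloid integrin, at 20 UMIs in the control and 5 in TTS (3.09, 1.22 to 4.45). In T cells 3 of 13 were higher and 3 lower (median 0.43), with *Cd226*, an adhesion receptor of T and NK cells, at 39.3 and 94.5 CPM (1.30, 0.19 to 2.23). In NK cells 1 of 13 was higher and 1 lower (median -0.21), namely *Cd226* at 39.6 and 133 CPM (1.78, 0.89 to 2.53) and *Spn*, which encodes CD43, at 538 and 235 CPM (-1.17, -1.77 to -0.67). In ILC2 0 of 11 were higher and 1 lower (median 0.12), *Itgb3*, at 120 and 40.9 CPM (-1.52, -2.41 to -0.79).

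For tissue residency genes and the G protein brakes of the RGS family, 5 of 11 were higher and 2 lower in TTS B cells (median 0.70). *Rgs1*, which dampens chemokine receptor signals, was at 29.3 and 172 CPM there (2.57, 2.03 to 3.04), with 21 of 40 TTS UMIs in 1 cell. In T cells 1 of 10 was higher and 3 lower (median 0.49), with the immediate early receptors *Nr4a2* at 343 and 70.8 CPM (-2.20, -3.42 to -1.33) and *Nr4a3* at 426 and 102 CPM (-2.01, -2.98 to -1.27). In NK cells 1 of 12 was higher and 0 lower (median -0.18), and in ILC2 0 of 11 were higher and 1 lower (median 0.02).

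Ligands of the members, among them the CD69 ligands *Lgals1*, *S100a8*, and *S100a9*, were at least 2-fold higher for 4 of 7 genes in TTS B cells, 1 of 5 in T cells, 1 of 6 in NK cells, and 2 of 6 in ILC2, with 1 lower in T cells and 0 lower in the other gates (medians 2.59, 0.49, 0.16, and 0.32). *S100a9*, a neutrophil gene, was higher in all 4 gates, from between 7.44 and 15.8 CPM in the control to between 39.1 and 180 CPM in TTS. Beta-adrenergic receptors and regulators were lower for 3 of 9 in B cells, 2 of 8 in T cells, 1 of 9 in NK cells, and 1 of 8 in ILC2, with 0 higher in each gate (medians -0.47, 0.32, -0.21, and -0.26). Of all genes, 12.4%, 11.5%, 15.6%, and 6.37% were lower. The 3 in B cells include *Grk5*, a receptor kinase, with 48 UMIs in the control and 0 in TTS, for which no fold can be given, and with it set at 3 UMIs the count was 2 and the median -0.17. *Crem*, a target of cAMP signaling, was at 405 and 189 CPM in B cells (-1.08, -1.56 to -0.67).

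Genes that respond to cell dissociation were higher for 4 of 13 and lower for 1 in TTS B cells, higher for 2 and lower for 1 in T cells, and higher for 0 and lower for 1 in NK cells and in ILC2 (medians 0.38, 0.40, -0.01, and -0.10). Glucocorticoid response genes were higher for 3 of 9 and lower for 1 in B cells, higher for 2 of 8 and lower for 0 in T cells, higher for 2 of 9 and lower for 1 in NK cells, and higher for 4 of 8 and lower for 1 in ILC2 (medians -0.44, 0.15, 0.07, and 1.15; the first 0.04 with *Cd163*, at 0 UMIs in TTS, set at 3). *Fkbp5*, a feedback regulator of the glucocorticoid receptor, was higher in all 4 lymphocyte gates. It was at 14.6 and 38.7 CPM in B cells (1.48, 0.24 to 2.38), 17.6 and 110 CPM in T cells (2.66, 1.52 to 3.75), 51.0 and 102 CPM in NK cells (1.04, 0.03 to 1.85), and 156 CPM in TTS ILC2 (1.64, 1.07 to 2.22), from 47 UMIs in the control and 61 in TTS. *Per1*, a clock gene that glucocorticoids induce, was on the same list and at the other end of it, at 161 and 60.1 CPM in B cells (-1.37, -2.29 to -0.67), 125 and 39.1 CPM in NK cells (-1.55, -3.32 to -0.43), and 206 and 92.1 CPM in ILC2 (-1.15, -1.72 to -0.64). In T cells its log2 ratio was -0.59 (-1.75 to 0.27).

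The genes whose levels followed each member most closely were ranked by Pearson's r of log2(CPM + 1) over 14 points, the gates with at least 50 cells in a library, among 11425 genes. The points share libraries and depth, so r is a description. They were *Dync2h1* (r = 0.94), *Cmah*, and *Gm26882* for *S1pr1*, *Gm14125* (0.93), *Efnb1*, and *Nck1* for *S1pr5*, *Atg2a* (0.93), *Cnppd1*, and *Slc28a2* for *Klf2*, and *Prrc2c* (0.95), *Faah*, and *Crem* for *Cd69*. For the other members they were *Gm20506* (0.89), *Irf4*, and *Slc30a4* for *Ccr7*, *Brwd1* (0.92), *Entpd5*, and *Itsn2* for *Cxcr5*, *Gmip* (0.95), *Gm20404*, and *Dazap2* for *Cxcr4*, and *Abca7* (0.91), *Pitpnm1*, and *Fmnl1* for *Itgal*.

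**Figure D5:**
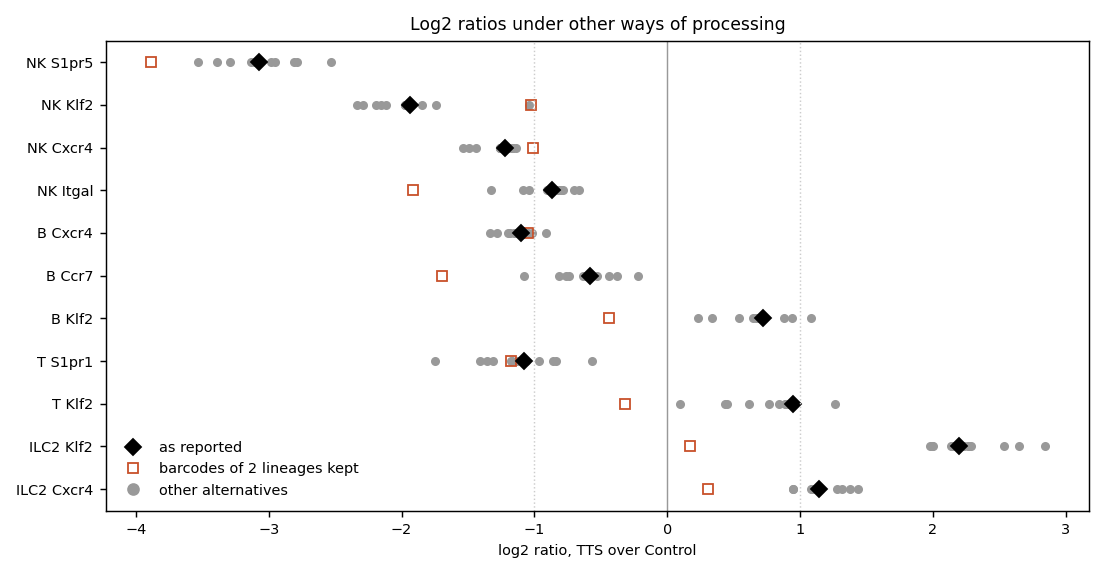
Log2 ratio, TTS over Control, of 11 gate and gene pairs as reported (black diamonds), with barcodes of 2 lineages kept (open squares), and under the other alternatives (grey points). *S1pr5*, *Klf2*, and *Cxcr4* in NK cells stayed below -1 in all 15, whereas *Klf2* in B and T cells crossed 0 and *Klf2* in ILC2 fell to 0.17 with barcodes of 2 lineages kept.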

How the data were processed

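The authors used UMI-tools 1.0.0 to read barcodes and UMIs, aligned reads to mm10 with STAR 2.7.3a, and counted them per gene with featureCounts 1.6.4, versions as in the submitters' processing notes. The deposited values are UMI counts per gene and barcode, without normalization. Cells with over 500 and under 6000 genes and under 25% mitochondrial UMIs were kept, as in the methods.

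Values were computed in Python 3.11.15 (pandas 2.3.3, numpy 2.4.6, scipy 1.17.1). Lymphocytes were gated as described with the results. Remaining cells with at most 1 marker of each lymphocyte list were gated in turn as mature DCs or DCs (at least 2 markers each), neutrophils (panel at least 1% of UMIs and at most 2 macrophage markers), macrophages (panel at least 1% and at least 3 markers), and monocytes (panel at least 1% and at least 1 marker). Gates were not clustered. No doublet caller was run, and barcodes of 2 lineages were left out of the lymphocyte gates. UMIs were summed per gate and library, with exact Poisson intervals of CPM, exact conditional binomial intervals of ratios, and Clopper-Pearson intervals of shares. With 1 library per group no test was made. Shares of cells were read after thinning to 1000 UMIs, with 2000 UMIs as the alternative, and cells with fewer UMIs were left out.

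The text names the 8 members in every gate, the 3 closest genes per member, and, of the 2 genes furthest from 0 each way per list and gate, chiefly those past 2-fold with an interval clear of 0. Values of 1 listed gene are not reported here. *Fkbp5*, *Per1*, *Crem*, and *S100a9*, and *Ace* and *Ly6c2* in monocytes, were picked out after their values were seen. The members and the lists were chosen with earlier results of these data known. Gene positions are from GENCODE M21 on GRCm38. The level step was tested on simulated data for 23946 genes. Of 200 genes given a 4-fold change in each gate, 190 in the NK, 181 in the B, 195 in the T, and 198 in the ILC2 gate were found past 2-fold in its direction. The simulated counts were independent and the changed genes well covered. The simulation thus does not cover genes with few UMIs or UMIs gathered in 1 cell. Alternatives varied the markers, the limits for 2 lineages, the filters, the scaling, the UMI minimum, and the fold.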

Additional observations from a re-analysis of the deposited data

Results flagged for a closer look

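*Klf2* and *Cxcr4* were at least 2-fold lower in one lymphocyte gate and at least 2-fold higher in another, which is why they are listed here. For *Klf2* the log2 ratio was -1.94 in NK cells and 2.19 in ILC2. For *Cxcr4* it was -1.10 in B cells, -1.22 in NK cells, and 1.14 in ILC2. The difference between gates was not tested, as each group has 1 library.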

How the results depend on the processing

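Of 400 member levels recomputed, 360 stayed within the counting interval and 40 moved outside it. The sign turned in 27, of which 7 concerned the 5 levels whose reported interval was clear of 0. These were *Ccr7* in NK cells (-0.92) and *Cxcr5* in B cells (0.14) when cells were gated after thinning, *Klf2* in B (-0.44) and T cells (-0.32) with barcodes of 2 lineages kept, and *Cxcr4* in T cells with the list of most markers (0.21), gating after thinning (0.11), or a limit of 1% (0.03). The others were *Cd69* and *Itgal*, with reported intervals that include 0. The cause of these moves was not tested unless stated. With barcodes of 2 lineages kept, 12 of 27 levels moved and the share ratios were -3.27 (B), -1.14 (T), -2.29 (NK), and -0.14 (ILC2). The B ratio was -6.04 at a limit of 0.2%, and the ILC2 ratio was -1.15 with 3 markers. For the counts of members past 2-fold, only moves to or from 0 or by more than 1.5-fold are listed in full. Under median-of-ratios scaling, smaller moves took NK cells, lower, from 5 to 6 and ILC2, higher, from 3 to 2. The listed moves were as follows. B cells, lower (1 as reported), had 0 at a limit of 0.2%, 3 at 1%, 6 with barcodes of 2 lineages kept, and 2 at 1.5-fold, and higher (0) had 1 with the mean over cells, a UMI minimum of 5, or 1.5-fold. T cells, lower (1), had 0 with 3 markers, 2 with the list of most markers, a limit of 1%, the mean over cells, or macrophage RNA subtracted, 3 with barcodes of 2 lineages kept, barcodes with DC markers left out, or median-of-ratios scaling, and 4 at 1.5-fold or with the top cell left out, and higher (0) had 1 with 3 markers or at 1.5-fold. NK cells, higher (1), had 0 when gated after thinning, without barcodes with DC markers, or at a UMI minimum of 50, and 2 at 1.5-fold. ILC2, higher (3), had 1 with barcodes of 2 lineages kept, and lower (0) had 1 at a UMI minimum of 5. Of the list medians, 449 moved by at most 0.5 and 31 by more. Of the shares of cells, 39 stayed within their intervals and 25 did not when thinned to 2000 UMIs, a depth at which more cells show a UMI by construction. Leaving out barcodes with DC markers, the top cell, or Gm26924 was chosen after seeing the data. No paired analysis was possible because each group has 1 library. With 25 to 91 TTS cells per gate, depth limits every ratio in the lymphocyte gates, and values from 3 UMIs or fewer give wide intervals.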
